A study of Rattus norvegicus with 6 samples.

Results

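Tubulin transcripts were followed in the hearts of 3 rats given doxorubicin and 3 rats given vehicle, for 10 genes chosen by symbol: the alpha isoforms Tuba1a, Tuba1b, Tuba1c, Tuba4a and Tuba8 and the beta isoforms Tubb2a, Tubb2b, Tubb4b, Tubb5 and Tubb6. They are 10 of the 17487 gene symbols in the deposited count table, and each stood on a single row. The animals were adult male Wistar rats, an outbred laboratory strain. The doxorubicin group received doxorubicin hydrochloride, an anthracycline chemotherapy drug known for its toxicity to the heart, at 3.75 mg/kg into the tail vein each week for 4 weeks. The control group received 0.9% sodium chloride by the same route and schedule, and no other agent or allele was given for either group. Heart tissue was sampled, 1 library was made per animal, and the chamber sampled and the time after the last injection were not given in the sources used here.

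Alpha and beta tubulin pair into dimers that polymerize into microtubules, the tracks for kinesin and dynein transport and, in cardiomyocytes, a lattice that is anchored to the desmin network and resists shortening of the cell. The isoforms of each family are encoded by separate genes, are very alike in sequence and differ mostly in their C-terminal tails, where tyrosine removal, glutamylation and other modifications take place. Cells also sense free tubulin dimers and degrade tubulin mRNAs while they are being translated when dimers are in excess. Anthracyclines are best known for acting on DNA and topoisomerases and are not classed as microtubule drugs. A direct action of doxorubicin on tubulin was not tested here.

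The libraries held 2219685 to 3508282 counts. Levels are given in CPM, counts scaled to a common library total with the trimmed mean of M-values (TMM), and the values of a group are listed in the order of its libraries 1, 2 and 3. Cardiomyocyte markers, 8 of the 9 listed ones, were abundant and summed to 92648 to 98008 CPM in the controls and 90278 to 102267 CPM after doxorubicin. Fibroblast, endothelial and smooth muscle marker sums overlapped between the groups. Sums of 5 erythroid and platelet markers also overlapped but spread widely, at 1394 to 5064 CPM in the controls and 481 to 1851 CPM after doxorubicin. Of these markers 3 were tested, and 0 had a log2 fold change above 0. The sums of 9 macrophage markers were higher in each doxorubicin library, 316 to 518 CPM against 259 to 278 CPM, with 9 of 9 markers at a log2 fold change above 0. The sums of 5 proliferating-cell markers were lower, 7.37 to 16.8 CPM against 17.9 to 30.1 CPM. Control library 1 stood apart on the first principal component, at -43.3 against -4.83 to 26.6 for the others.

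Upstream sequences are shown for 4 isoforms picked from these same data. Tuba4a and Tubb4b had the most alike levels of 36 pairs. Tuba1a and Tuba1b are neighbouring genes whose count ratio, chosen after the table was seen, did not overlap between the groups. Both choices are descriptions, and none of the 4 isoforms passed the adjusted threshold used below. Each line gives the 250 bases before the RefSeq transcription start, 5′ to 3′ on the strand of the gene, from RefSeq's promoter table, whose build, GRCr8, is not the build of the counts, mRatBN7.2. All 4 lie on the minus strand, Tuba4a at chr9:84162585-84162834, Tubb4b at chr3:28438456-28438705, Tuba1a at chr7:131995820-131996069 and Tuba1b at chr7:131972588-131972837. Capitals mark, on either strand, the CCAAT box spelled CCAAT, the GC box spelled GGGCGG, the TATA box spelled TATAAA, and a further string spelled ATATAA.
Tuba4a: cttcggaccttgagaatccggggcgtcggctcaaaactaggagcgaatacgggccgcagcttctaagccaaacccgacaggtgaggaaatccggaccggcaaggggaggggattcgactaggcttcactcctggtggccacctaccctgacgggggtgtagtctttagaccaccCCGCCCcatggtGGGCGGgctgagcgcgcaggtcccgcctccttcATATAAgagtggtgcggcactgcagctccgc
Tubb4b: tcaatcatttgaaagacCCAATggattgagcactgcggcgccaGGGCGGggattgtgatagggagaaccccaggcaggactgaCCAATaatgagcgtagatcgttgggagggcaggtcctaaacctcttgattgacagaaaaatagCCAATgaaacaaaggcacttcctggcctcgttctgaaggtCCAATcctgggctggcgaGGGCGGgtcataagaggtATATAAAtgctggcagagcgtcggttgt
Tuba1a: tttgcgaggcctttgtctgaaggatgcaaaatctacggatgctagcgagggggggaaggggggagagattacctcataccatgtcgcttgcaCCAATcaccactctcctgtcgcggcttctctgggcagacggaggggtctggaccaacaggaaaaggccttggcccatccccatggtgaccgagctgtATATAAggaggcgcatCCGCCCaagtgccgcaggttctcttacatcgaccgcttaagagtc
Tuba1b: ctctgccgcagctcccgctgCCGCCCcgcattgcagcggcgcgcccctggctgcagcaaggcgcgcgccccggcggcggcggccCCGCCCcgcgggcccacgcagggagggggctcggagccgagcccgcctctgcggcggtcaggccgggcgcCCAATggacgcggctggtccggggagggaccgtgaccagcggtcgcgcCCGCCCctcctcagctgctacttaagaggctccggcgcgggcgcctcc

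Tubb4b had 4 CCAAT matches, all on the strand of the gene and starting 233, 167, 104 and 64 bases before the start. At least 4 matches in such a window were found in 0.565% of 33469 promoter entries, and at least 1 in 34% of them. The cut of 4 was the count of Tubb4b itself, the highest of the 10 isoforms, so 0.565% is a description only. Tuba1a and Tuba1b had 1 CCAAT match each and Tuba4a had none, and over the 10 isoforms 7 held a match. GGGCGG was present upstream of 8 of the 10 isoforms, all 4 shown ones included, against 30.5% of all entries. TATAAA was found upstream of Tubb4b and Tubb2a, against 12.9% of all entries. The string ATATAA was searched after the sequences had been read: it was found upstream of Tuba4a, 31 bases before the start, and of Tubb4b, 28 bases before it, overlapping TATAAA there. It was also found upstream of Tuba1a and Tuba1c, and in 9.95% of all entries. These matches describe letters and were not tested as binding sites.

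The main question was whether any isoform differed in the heart after doxorubicin. Of the 10 isoforms 9 passed the filter on low counts, and 0 of the 9 had an adjusted p-value under 0.05 in edgeR's quasi-likelihood test with Benjamini-Hochberg adjustment over all 9205 symbols tested. Over all tested symbols 0.0543% passed that threshold, 0.0217% higher and 0.0326% lower after doxorubicin, so a count of 0 among 9 genes is close to the background. None of the 9 had an unadjusted p under 0.05 in edgeR, against 8.1% of all tested symbols. DESeq2 and limma voom also called 0, with 0 and 1 (Tuba1a) at an unadjusted p under 0.05. The log2 fold changes ran from -0.47 for Tuba1a to 0.32 for Tuba4a, with 5 above 0 and 4 below. Their median was 0.10, beside 0.02 over all tested symbols. The levels of the groups overlapped for each of the 10 isoforms. Over all tested symbols they did not overlap for 13.4%, 6.39% higher and 7.06% lower. A count of 0 among 10 genes is not set apart from that share. In whole tissue, fewer cells of a type and less RNA per cell cannot be told apart.

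**Figure D1:**
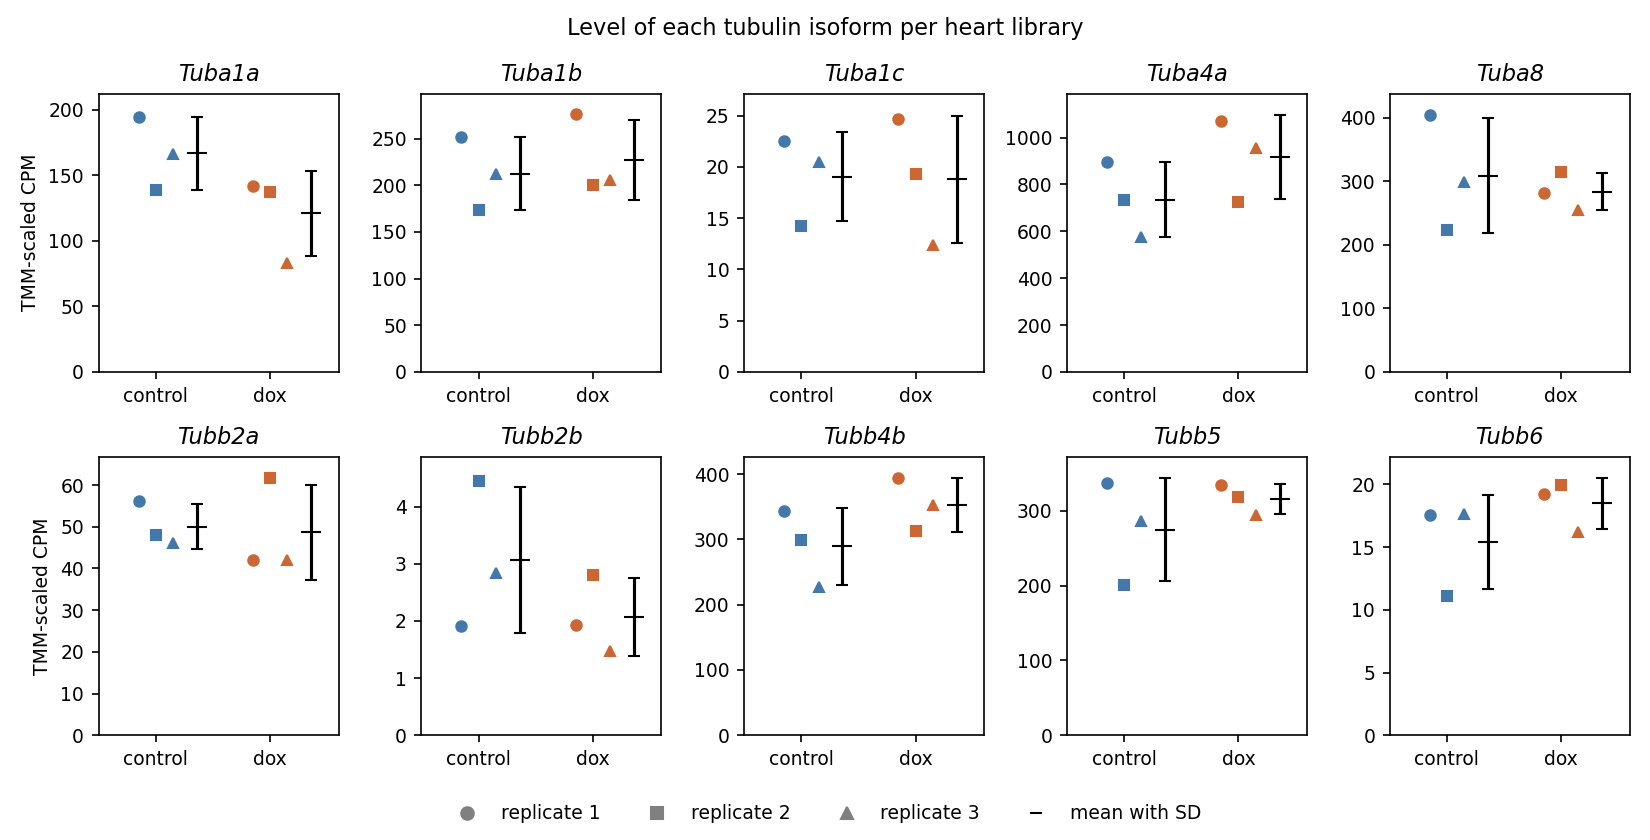
TMM-scaled CPM of the 10 tubulin isoforms (vertical axes, each from 0) in 3 control and 3 doxorubicin (dox) libraries, with symbols for the replicate numbers and bars for mean and SD. The groups overlap in each panel, and the Tuba4a and Tubb4b panels show the same libraries high and low.

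Among the alpha isoforms, Tuba4a is common in muscle and is encoded without the C-terminal tyrosine that most alpha tubulins carry. Its level was 895, 734 and 576 CPM in the controls and 1072, 724 and 957 CPM after doxorubicin. Doxorubicin libraries 1 and 3 lay above all controls and doxorubicin library 2 lay among them. The means were 735 ± 159 and 918 ± 177 CPM (SD, n = 3), and the log2 fold change was 0.32 (SE 0.21, 95% interval -0.14 to 0.78, adjusted p 0.734 by edgeR). It was 0.17 without control library 3 and 0.49 without control library 1.

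Tuba8, an alpha isoform described in heart and skeletal muscle, had 404, 223 and 300 CPM in the controls and 282, 315 and 256 CPM after doxorubicin. The doxorubicin values lay within the control range. Its log2 fold change was -0.12 (SE 0.22, 95% interval -0.59 to 0.34), and without control library 1, the highest library, it was 0.12.

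Tuba1a, the main alpha isoform of developing neurons and also made in other cells, had 195, 139 and 166 CPM in the controls and 142, 137 and 83.4 CPM after doxorubicin. Doxorubicin library 3 was the lowest, and the other two doxorubicin libraries were near control library 2. The means were 167 ± 27.8 and 121 ± 32.5 CPM (SD, n = 3), and the log2 fold change was -0.47 (SE 0.22, 95% interval -0.94 to 0.0091) at an unadjusted p of 0.0540 and an adjusted p of 0.616 in edgeR. Without doxorubicin library 3 it was -0.25.

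Tuba1b, a broadly made alpha isoform, had 252, 173 and 212 CPM in the controls and 276, 200 and 205 CPM after doxorubicin. Library 1 of each group was the highest, and the group ranges overlapped. Its log2 fold change was 0.10 (SE 0.20, 95% interval -0.34 to 0.53). Tuba1c, the remaining member of that gene cluster, had 22.5, 14.2 and 20.4 CPM in the controls and 24.7, 19.3 and 12.4 CPM after doxorubicin. It rested on 32 to 77 counts per library, and its log2 fold change was -0.03 (SE 0.30, 95% interval -0.68 to 0.62).

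Among the beta isoforms, Tubb4b is made in most tissues and is abundant in ciliated cells. Its level was 343, 299 and 226 CPM in the controls and 394, 312 and 352 CPM after doxorubicin. Doxorubicin libraries 1 and 3 were the highest of the 6, and doxorubicin library 2 lay between controls 1 and 2. The means were 290 ± 59.0 and 353 ± 40.8 CPM (SD, n = 3), and the log2 fold change was 0.29 (SE 0.20, 95% interval -0.14 to 0.71, adjusted p 0.744 by edgeR). It was 0.13 without control library 3 and 0.43 without control library 1.

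Tubb5, the broadly made beta isoform, had 338, 201 and 287 CPM in the controls and 335, 318 and 295 CPM after doxorubicin. Control library 2 was low and the other libraries lay close together. The log2 fold change was 0.20 (SE 0.20, 95% interval -0.24 to 0.64), and without control library 2 it was 0.030.

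Tubb2a, a beta isoform best known from neurons, had 56.1, 48.0 and 46.0 CPM in the controls and 42, 61.8 and 42.1 CPM after doxorubicin. Doxorubicin library 2 was the highest of the 6 and the other two doxorubicin libraries were the lowest. Its log2 fold change was -0.04 (SE 0.22, 95% interval -0.50 to 0.43). Tubb6, a beta isoform described in regenerating muscle, had 17.6, 11.1 and 17.6 CPM in the controls and 19.3, 19.97 and 16.2 CPM after doxorubicin. It rested on 25 to 64 counts per library, and its log2 fold change was 0.25 (SE 0.28, 95% interval -0.34 to 0.84), or 0.081 without control library 2.

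Tubb2b, a close relative of Tubb2a, was the isoform that the filter removed. It had 5, 10 and 10 counts in the controls and 6, 9 and 5 after doxorubicin, and the groups overlapped. A fit without the filter gave a log2 fold change of -0.54 (SE 0.64, 95% interval -1.82 to 0.75), too wide to tell the groups apart at this depth.

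The share of each isoform in the alpha or beta tubulin counts of its own library does not depend on scaling between libraries. Each library held 2890 to 5597 alpha and 1268 to 2468 beta counts, and the Wilson 95% intervals of the shares, which cover counting error only, were at most ± 2.74 percentage points. Counts were not divided by transcript length, so the shares are compared between libraries and not between isoforms. Of the 10 shares 1, that of Tuba1a, did not overlap between the groups, and the other shares overlapped. The levels of 13.4% of tested symbols did not overlap either, 7.06% of tested symbols being lower and 6.39% higher, and these figures are for levels and not for shares.

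The Tuba1a share of alpha counts was 11%, 10.8% and 13.1% in the controls and 7.90%, 9.84% and 5.51% after doxorubicin. The means were 11.6% ± 1.23 and 7.75% ± 2.17 (SD, n = 3), a difference of -3.88 points. A 2-sided exact permutation test gave p = 0.1, which 3 libraries a group cannot go below. The nearest libraries of the groups were control 2, with a Wilson interval of 9.75% to 12.0%, and doxorubicin 2, with 9.0% to 10.8%, so their gap was within counting error. Proliferating-cell markers were lower and macrophage markers higher in the same libraries, as given above, and their part in this difference was not tested.

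The Tuba4a share was 50.6%, 57.2% and 45.2% in the controls and 59.7%, 51.9% and 63.2% after doxorubicin, with means of 51.0% ± 5.98 and 58.3% ± 5.80 (SD, n = 3). Doxorubicin libraries 1 and 3 were above all controls and doxorubicin library 2 was below control library 2, and the exact permutation p was 0.2. The Tuba8 share was 22.9%, 17.4% and 23.5% in the controls and 15.7%, 22.6% and 16.9% after doxorubicin. Control library 2 and doxorubicin libraries 1 and 3 were low for Tuba8 and high for Tuba4a. The pair made up most alpha counts, so a higher share of one leaves less for the other by construction. Tuba1b took 13.5% to 16.6% of alpha counts in the controls and 13.6% to 15.4% after doxorubicin. For Tuba1c the ranges were 1.11% to 1.6% and 0.817% to 1.39%.

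Among beta counts, Tubb4b and Tubb5 likewise made up most of the total, so their shares are not independent. The Tubb4b share was 45.4%, 53.1% and 39.1% in the controls and 49.7%, 43.7% and 49.8% after doxorubicin. The Tubb5 share was 44.6%, 35.6% and 49.5% in the controls and 42.3%, 44.5% and 41.7% after doxorubicin. The control libraries spread wider than the doxorubicin libraries for both isoforms, and the doxorubicin values lay inside the control range. The Tubb2a share was 7.42%, 8.52% and 7.94% in the controls and 5.31%, 8.64% and 5.97% after doxorubicin, with doxorubicin libraries 1 and 3 lowest. Tubb6 took 1.97% to 3.04% in the controls and 2.29% to 2.79% after doxorubicin, and Tubb2b 0.252% to 0.789% and 0.209% to 0.393%.

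**Figure D2:**
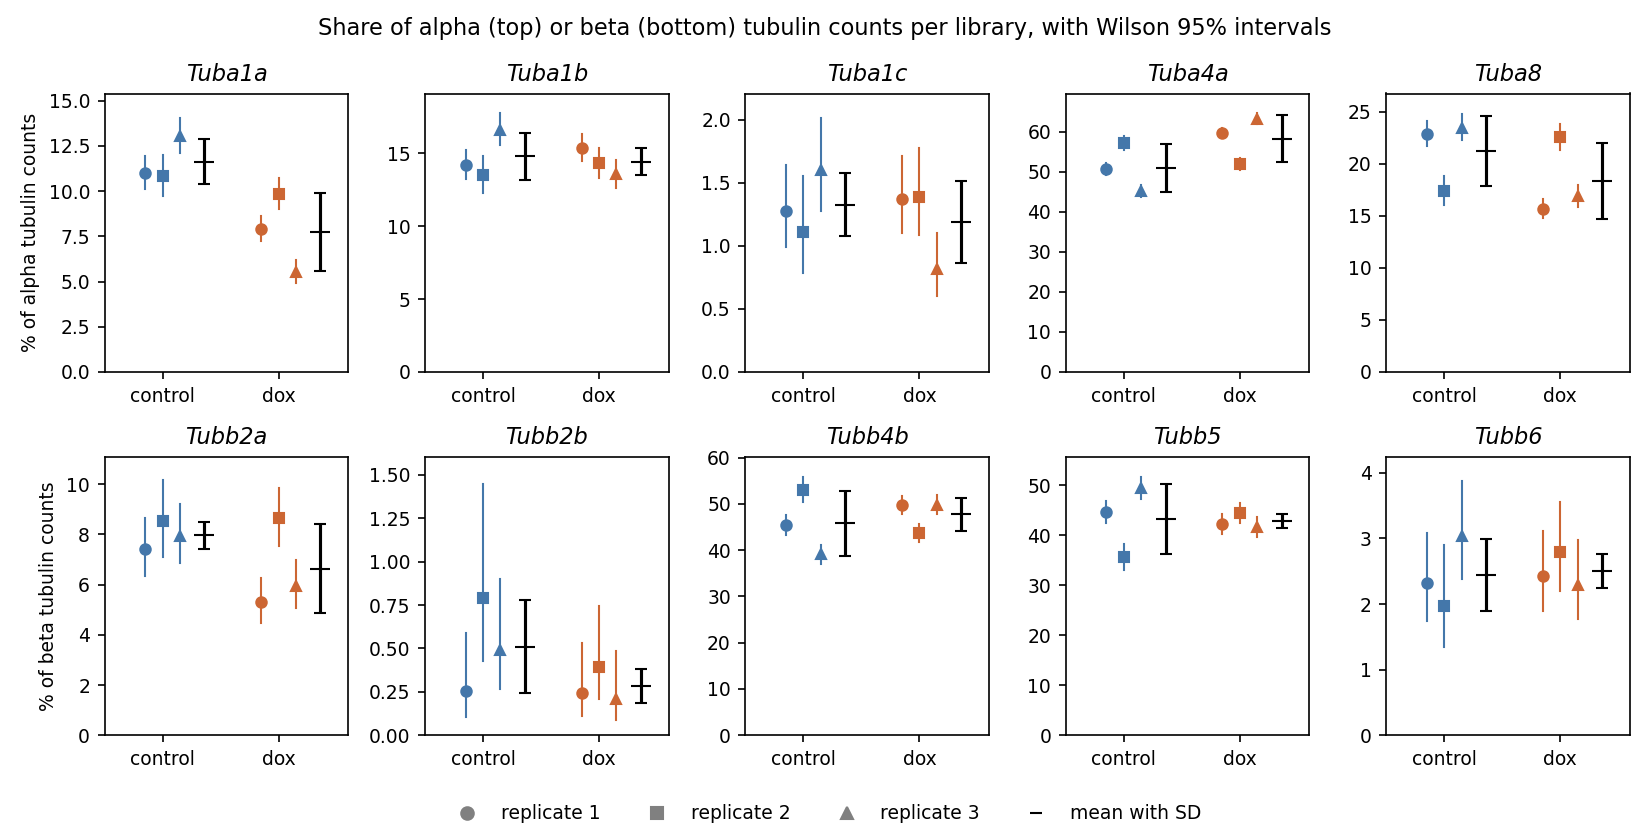
Share of each isoform in the alpha (top) or beta (bottom) tubulin counts of its library, in percent, for 3 control and 3 doxorubicin (dox) libraries, with Wilson 95% intervals as thin lines and mean and SD in black. The Tuba1a shares of the groups do not overlap, and the shares in the other 9 panels do.

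Tuba1a and Tuba1b are neighbours in one cluster and encode nearly the same protein, so their counts were set against each other, a ratio chosen after the table was seen. There were 1.29, 1.25 and 1.27 Tuba1b counts per Tuba1a count in control libraries 1, 2 and 3. The doxorubicin libraries 1, 2 and 3 had 1.95, 1.46 and 2.46. The control values lay close together, at 1.27 ± 0.0233, while the doxorubicin values were all higher and spread widely, at 1.96 ± 0.503 (SD, n = 3). The exact permutation test gave p = 0.1 for this ratio, its lower limit. Because the ratio was chosen from these values, that p-value is no independent test. The ratio also rests on the same Tuba1a counts as the Tuba1a share and is not a separate result. The difference of the means was 0.68, and 0.43 without doxorubicin library 3. It was 1 of 4 ratios computed: those of Tuba4a per Tuba1a, Tuba4a per Tuba8 and Tubb4b per Tubb5 counts overlapped between the groups, with exact permutation p-values of 0.2, 0.2 and 1. How reads shared by the Tuba1 genes and their copies were counted is not given in the sources used here. The GRCr8 gene list holds 5 pseudogenes named after Tuba1a and 14 named after Tuba1b, and its Tuba1c span overlaps both genes, so the values of these 3 isoforms are uncertain to that extent. The list also holds 1 pseudogene named after Tuba4a and 4 named after Tubb4b. Tuba4a and Tubb4b each overlap 1 other listed gene, so their values carry the same kind of uncertainty.

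Tuba4a and Tubb4b had the most alike levels among 36 pairs of tested isoforms, with Pearson's r of log2 CPM of 0.97 and Spearman's rho of 0.94 over the 6 libraries. Without the 2 libraries farthest from the Tuba4a median, r was 0.96. Control library 3 was the lowest and doxorubicin library 1 the highest for both genes. The next pair was Tubb5 and Tubb6, with r of 0.94 and rho of 0.49. Tuba1a and Tuba4a had the lowest r, -0.33. These values share library scaling, mix both groups and are given as descriptions.

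**Figure D3:**
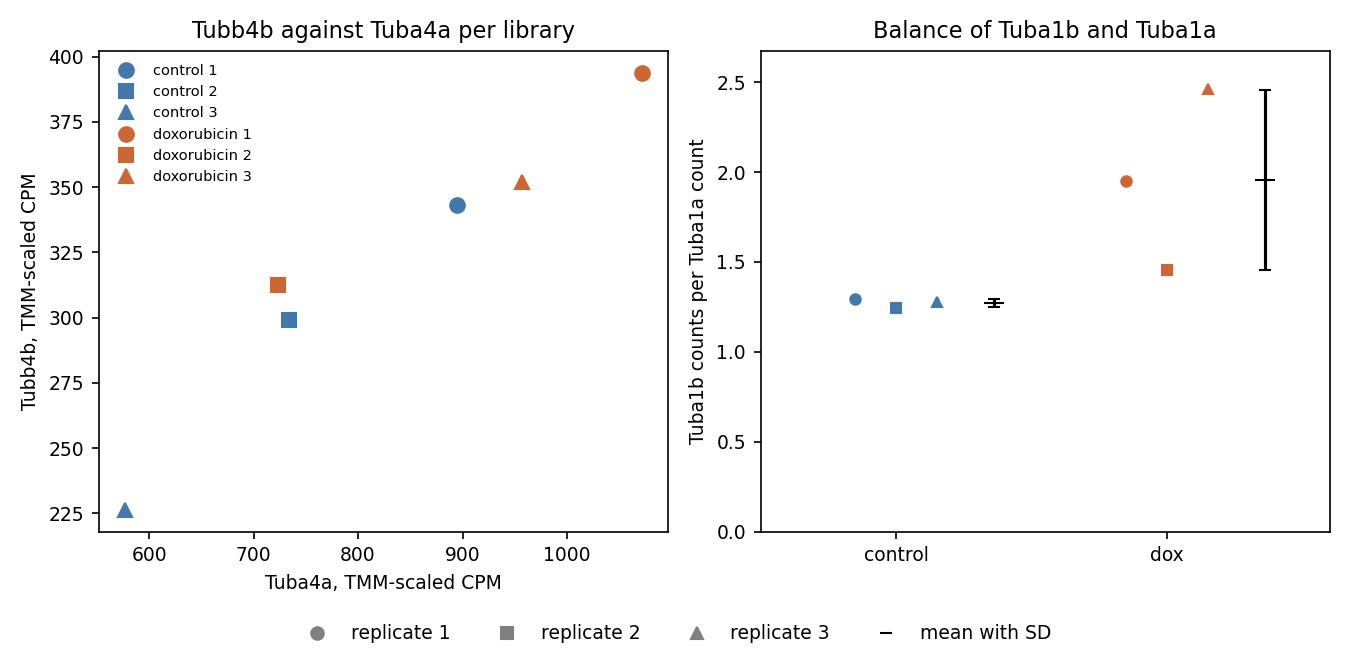
Left, Tubb4b against Tuba4a in TMM-scaled CPM, 1 point per library, with axes that do not start at 0; the points run from control library 3 at the lower left to doxorubicin library 1 at the upper right. Right, Tuba1b counts per Tuba1a count in each library with mean and SD; the controls sit at 1.25 to 1.29 and the doxorubicin (dox) libraries at 1.46 to 2.46.

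Summed over the 5 alpha isoforms, tubulin was 1768, 1284 and 1275 CPM in the controls and 1797, 1395 and 1514 CPM after doxorubicin. Summed over the 5 beta isoforms it was 756, 563 and 579 CPM in the controls and 792, 715 and 706 CPM after doxorubicin. Control library 1 and doxorubicin library 1 were the highest of their groups in both sums. The doxorubicin mean was 1.09 times the control mean for alpha and 1.17 times for beta, with exact permutation p-values of 0.5 and 0.3. The alpha difference of 126 CPM was 12.1 CPM without doxorubicin library 1, 289 CPM without control library 1 and 225 CPM when scaled by library size only, and the beta difference of 105 CPM ran from 70.1 to 167 CPM over the alternatives. Alpha isoforms held 70.0%, 69.5% and 68.8% of the counts of the 10 isoforms in the controls and 69.4%, 66.1% and 68.2% after doxorubicin, and the exact permutation p was 0.2. The 5 symbols whose log2 CPM was most like the log2 of the 10 isoforms summed, among 7406 symbols with a mean of at least 10 CPM, were Vps33a (r = 0.99), Rtcb (0.98), Trappc4 (0.98), Hk1 (0.98) and Psmd5 (0.97), over 6 libraries. They are the highest of 7406 values, share library scaling, mix both groups and are given as descriptions.

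Other tubulin genes had at most 14 counts in any library, with Tubg1 as the exception. Tubg1, the gamma tubulin that nucleates microtubules, had 63.8, 47.1 and 57.1 CPM in the controls and 57.5, 72.1 and 76.6 CPM after doxorubicin. The groups overlapped, and the difference was 0.29 on the log2 scale (SE 0.20), at an adjusted p of 0.741 in edgeR. Tubd1 and Tube1, delta and epsilon tubulin of centrioles, were tested on 8 to 14 and 2 to 14 counts, with log2 fold changes of -0.20 (SE 0.49) and 0.40 (SE 0.62). The neuronal isoform Tubb3 had 4, 3 and 6 counts in the controls and 6, 10 and 8 after doxorubicin. Its CPM values did not overlap, but with no filter the log2 fold change was 0.67 (SE 0.69). Tubb4a had 0 to 5 counts, Tuba3b 0 to 3, Tubg2 0 to 3 and Tuba3a 0 to 1, and Tubal3 was listed at 0.

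The genes that fold, modify, bind and use tubulin were read from 8 lists. Over these lists 87 distinct genes were tested, and 0 passed an adjusted p of 0.05 in edgeR. An unadjusted p under 0.05 was reached by 7 of them, 8.05% beside 8.1% of all tested symbols. Levels without overlap were found for 14 of the 87, 16.1% beside 13.4% of all tested symbols. DESeq2 called 1 gene, Vash2, while calling 74 of the 13050 symbols it fitted. Limma voom called 0 of these genes, and 0 of all 9205 symbols.

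Among tubulin modifying enzymes, 0 of 9 tested passed in either direction, with a median log2 fold change of -0.18, which was -0.013 without control library 3. Vash2 encodes a vasohibin, which with its partner Svbp removes the C-terminal tyrosine of alpha tubulin. Its level was 8.02, 16.0 and 9.66 CPM in the controls and 41.4, 22.8 and 30.7 CPM after doxorubicin. Each doxorubicin library was above each control, and the log2 fold change was 1.51 (SE 0.32), from 21 to 129 counts per library. Its adjusted p was 0.125 in edgeR, 0.0105 in DESeq2, 0.00519 in edgeR with no filter on low counts, and 0.182 in limma voom with the filter. The DESeq2 fit did not use the edgeR filter, but by default DESeq2 leaves low-count symbols out of its adjustment. The tool and the filter are therefore not told apart there. The adjusted p was 0.0400 in edgeR without doxorubicin library 2 and 0.0790 to 0.432 without each of the other libraries. Over the alternatives run, the log2 fold change of Vash2 ran from 1.27 to 1.84. Svbp, named for its link to Vash2, had 0 to 3 counts, and Ttl, the ligase that puts tyrosine back, differed by 0.27 on the log2 scale (SE 0.30), from 29 to 81 counts; both were singled out after their values were seen. Atat1, the acetyltransferase of alpha tubulin, had 15.7, 14.7 and 12.2 CPM in the controls and 10.9, 10.3 and 12.1 CPM after doxorubicin, with a log2 fold change of -0.35 (SE 0.29). Ttll12, of the tyrosine ligase-like family, had -0.43 (SE 0.27). The deacetylase gene Sirt2 had -0.18 (SE 0.18) and the deglutamylase gene Agtpbp1 0.05 (SE 0.20).

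Among depolymerizing and severing proteins, 0 of 6 tested passed and 5 of 6 had a log2 fold change below 0, with a median of -0.30. For 3 of the 6 all doxorubicin libraries were below all controls, and for 1 they were all above, beside 7.06% and 6.39% of all tested symbols. Stmn1, which binds free tubulin dimers and promotes disassembly, had 96.2, 75.1 and 76.1 CPM in the controls and 52.0, 53.7 and 47.2 CPM after doxorubicin. The doxorubicin libraries lay close together below all controls, with a log2 fold change of -0.69 (SE 0.19, adjusted p 0.244 by edgeR, and 0.161 to 0.614 over the alternatives). Katna1, the catalytic subunit of the severing enzyme katanin, had 17.9, 17.3 and 15.6 CPM in the controls and 10.6, 11.9 and 10.02 CPM after doxorubicin, with a difference of -0.64 on the log2 scale (SE 0.27) from 33 to 55 counts. Spast, the severing enzyme spastin, had 36.7, 33.8 and 39.8 CPM and 28.2, 27.5 and 29.2 CPM, a log2 fold change of -0.38 (SE 0.21). The proliferating-cell markers that moved the same way, given above, were not tested as a part of these differences.

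Tubulin folding genes showed no common direction: 0 of 18 tested passed, 8 had a log2 fold change above 0 and 10 below, and the median was -0.02. The chaperonin subunit genes Tcp1, Cct6a, Cct8 and Cct5 had log2 fold changes of 0.35, 0.29, 0.07 and -0.03. The Tcp1 values of the groups did not overlap, at 115, 141 and 136 CPM in the controls and 212, 145 and 141 CPM after doxorubicin, and doxorubicin library 1 alone stood well above the controls. Tbca, a cofactor that holds beta tubulin during folding, had -0.35 (SE 0.25). Of the factors that degrade tubulin mRNA, Ttc5, which recognizes nascent tubulin, had 0.09 (SE 0.23) and Cnot11, of the deadenylase complex, -0.18 (SE 0.24).

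Among microtubule-associated and end-binding proteins 0 of 22 tested passed, with 13 above 0 and a median of 0.03. Mast2, a microtubule-associated kinase, had 124, 119 and 120 CPM in the controls and 148, 146 and 181 CPM after doxorubicin. All doxorubicin values were above the narrow control range, with a log2 fold change of 0.39 (SE 0.17, adjusted p 0.589 by edgeR). Mapre3, an end-binding protein, had 170, 128 and 107 CPM in the controls and 92.4, 112 and 93.4 CPM after doxorubicin, a log2 fold change of -0.45 (SE 0.20) with overlapping groups. The spindle factor Tpx2 had -1.33 (SE 0.67) on 2 to 35 counts, and -0.44 without control library 3, its highest library. Map1lc3a, the autophagy protein LC3, had -0.32 (SE 0.24), with control library 1 the highest at 1488 CPM, and became 0.06 without that library. Mtus1 had 0.16 (SE 0.21).

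Transport motors also did not pass, 0 of 23, with 13 above 0 and a median of 0.08. Kif5b, the heavy chain of the kinesin that carries cargo to the cell edge, had 51.9, 124 and 86.6 CPM in the controls and 121, 106 and 237 CPM after doxorubicin. Doxorubicin library 3 was far above the rest and the groups overlapped, with a log2 fold change of 0.83 (SE 0.33, adjusted p 0.527 by edgeR), or 0.39 without that library. Kif13a, a cargo kinesin, had 126, 153 and 146 CPM in the controls and 234, 161 and 184 CPM after doxorubicin, a log2 fold change of 0.45 (SE 0.19) without overlap. The dynactin subunit gene Dctn4 had 0.57 (SE 0.31), the kinesin gene Kif1c -0.11 (SE 0.19) and the dynein light chain gene Dynll2 -0.05 (SE 0.19).

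The list of desmin and other cytoskeleton genes had 0 of 4 tested past the threshold, with a median of -0.19, which was 0.063 without control library 1. Des, the desmin gene, had 5924, 4042 and 4437 CPM in the controls and 3931, 4271 and 4364 CPM after doxorubicin, a log2 fold change of -0.20 (SE 0.19). Control library 1 was the highest and the other libraries overlapped, and without control library 1 the value was -0.013. The values were -0.18 (SE 0.18) for Vim and 0.49 (SE 0.29) for Synm.

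**Figure D4:**
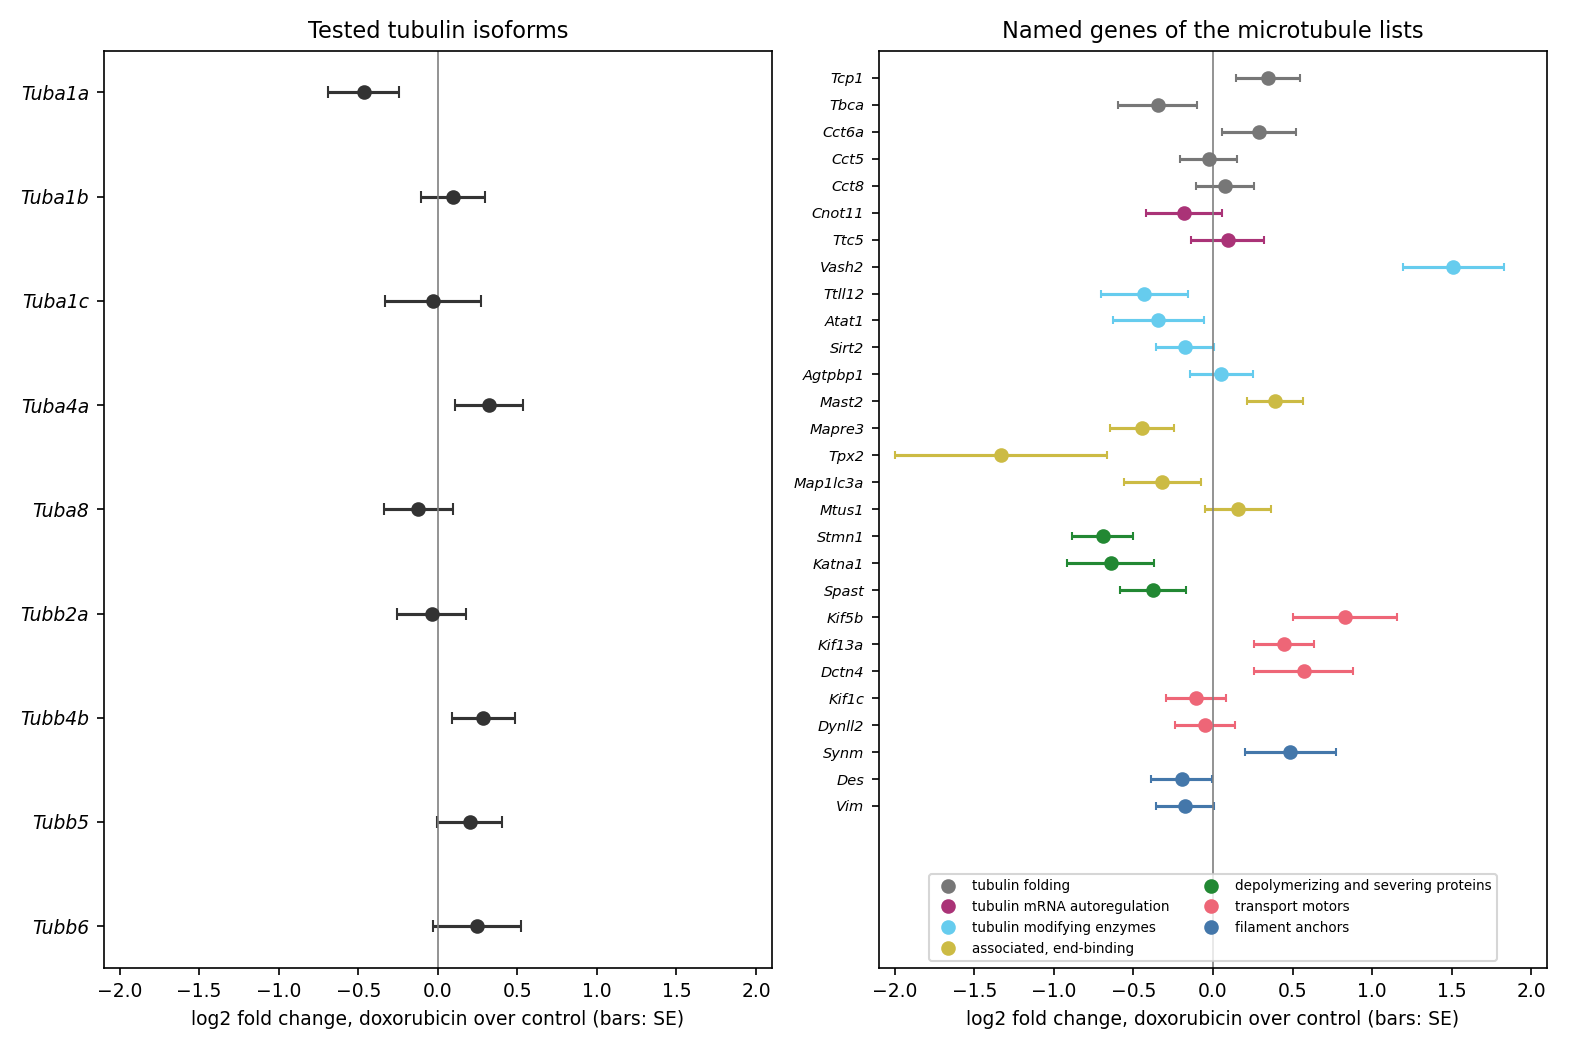
Log2 fold change of doxorubicin over control with its SE for the 9 tested isoforms (left) and for the named genes of 7 microtubule lists, coloured by list (right). The isoforms lie between -0.47 and 0.32, and among the list genes Vash2 lies highest at 1.51 and Tpx2 lowest at -1.33.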

How the data were processed

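RNA was measured in 6 heart libraries, 3 per group. The authors deposited raw read counts per gene symbol, with no normalization, in a single table. Per the submitters' processing notes FastQC, Trimmomatic, STAR, HTSeq and the build mRatBN7.2 were used. Versions, strand, counting mode and annotation were not given in the sources used here. Rows of a symbol were summed (599 of 17487 symbols stood on several rows).

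The main fit was edgeR 4.0.16 (R 4.3.3), quasi-likelihood with robust dispersion, TMM factors and filterByExpr (minimum count 10, minimum total 15), on all symbols, with Benjamini-Hochberg adjustment and a threshold of 0.05. The SE was the log2 fold change divided by the square root of F, and a prior count of 2 entered the log2 CPM values. Shares and sums were compared by 2-sided exact permutation tests. The fits were tested on simulated data. Alternatives included DESeq2 1.42.0 and limma 3.58.1 voom. Libraries of a group differed by more than sampling noise (chi-square per degree of freedom at least 4.32). RefSeq sequences matched all 10 isoforms by symbol, and 15582 symbols matched the GRCr8 gene list, used for names, neighbours and overlaps.

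The members and lists were chosen with earlier results of these data known. Named genes were all tubulins and, per list, those past the threshold or else the 3 smallest p-values, plus the 2 highest means.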

Additional observations from a re-analysis of the deposited data

How the results depend on the processing

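The number of tested symbols past an adjusted p of 0.05 was 5. It was 0 with library size only (713 at an unadjusted p under 0.05), 61 with no filter, 1 at a mean CPM of at least 5, 74 with DESeq2 and 0 with limma voom (740 unadjusted), and 0 to 35 when single libraries were left out, 35 without doxorubicin 2 and 0 without control 1, control 3, doxorubicin 1 or doxorubicin 3 (531 to 636 unadjusted). With the replicate number as a block it was 13. Same-numbered libraries did not deviate together (correlations of 0.02, -0.19 and -0.06), and the block called 0 of the isoforms and 0 of the list genes. No isoform passed in any alternative run. In the lists 1 gene, Vash2, passed with no filter, with DESeq2 and without doxorubicin library 2, giving 0 to 1 over the fits that left out single libraries. Over all symbols those fits called 61 of 13050, 74 of 13050 and 35 of 9387, beside 5 of 9205 in the main fit.

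Tuba4a, Tubb4b, Tubb5 and Tubb6 kept a log2 fold change above 0 and Tuba1a below 0 in all alternatives, with ranges of 0.17 to 0.49, 0.13 to 0.43, 0.030 to 0.38, 0.081 to 0.36 and -0.59 to -0.25. Library size only moved the median of all symbols from 0.02 to 0.10. It turned Tuba1c to 0.061, Tubb2a to 0.051, Cct5 to 0.066 and Dynll2 to 0.037, all below that shift. Leaving out single libraries changed the sign of further small log2 fold changes, whose ranges over those fits were -0.062 to 0.24 for Tuba1b, -0.27 to 0.21 for Tuba1c, -0.30 to 0.12 for Tuba8, -0.24 to 0.064 for Tubb2a, -0.51 to 0.0045 for Tubd1, -0.084 to 0.10 for Cct5, -0.065 to 0.15 for Cct8, -0.039 to 0.25 for Ttc5, -0.090 to 0.18 for Agtpbp1, -0.51 to 0.056 for Map1lc3a, -0.011 to 0.29 for Mtus1, -0.23 to 0.038 for Kif1c and -0.20 to 0.072 for Dynll2. The signs changed without control 1 for all of these but Tuba1b, Tubd1, Cct8 and Ttc5, and for those without control 2 (Tuba1b, Ttc5), doxorubicin 1 (Tuba1b, Cct8), doxorubicin 2 (Ttc5) or doxorubicin 3 (Tubd1). Some of these also turned without another library: Tuba1c (control 3, doxorubicin 3), Tubb2a (doxorubicin 1, doxorubicin 3) and Cct5 (doxorubicin 1). So did Agtpbp1 (doxorubicin 2) and Dynll2 (doxorubicin 3). The cause was not tested.

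Over the alternatives the list medians ran from -0.22 to -0.013 for modifying enzymes, -0.40 to -0.21 for depolymerizing and severing proteins and 0.0025 to 0.39 for other tubulins. The medians of the other 5 lists changed sign: -0.068 to 0.069 for folding, -0.17 to 0.044 for autoregulation, -0.044 to 0.12 for microtubule-associated proteins, -0.027 to 0.17 for motors and -0.27 to 0.063 for desmin and other anchors.

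The difference in the Tuba1a share ran from -4.93 to -2.76 points and in Tuba1b counts per Tuba1a count from 0.43 to 0.93 over the alternatives, while the small differences in the Tuba1b, Tuba1c, Tubb4b, Tubb5 and Tubb6 shares changed sign when some single libraries were left out. The alternative per transcript length was not run, because the reference tables used here give gene spans and no transcript lengths. Low counts limit Tubb2b, with at most 10 in a library, and the minor tubulins other than Tubg1, with at most 14.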
